A study of Homo sapiens with 2 samples.

Results

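The genes of MHC class I antigen presentation described here are HLA-B, HLA-C, HLA-E, HLA-F, B2M, TAP1, TAP2, PSMB8 and PSMB9. They were chosen by name, with earlier results of these data known. Their probes were found through the RefSeq accession that the array design gives each probe. These 9 of the 19740 genes named on the array have 12 of its 42405 probes, printed as 30 of 58717 spots, and 11 of the 12 probes were measured. RNA came from RWPE-1 cells, an established line of noncancerous human prostate epithelium, transfected at 30 nM either with the synthetic microRNA precursor pre-miR-424 or with the negative control #1 precursor. Both RNAs were hybridised to 2 Agilent two-colour arrays, where Cy5 marked the pre-miR-424 RNA under normal labelling and Cy3 marked it on the dye swap. The labels call the arrays technical replicates, so there was 1 replicate of the comparison, no test was possible, and each SD between arrays reflects only labelling and hybridisation. The labels give neither the time after transfection nor the number of cultures, so the values describe a single line and a single pair of RNAs.

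MHC class I molecules show peptides from inside the cell to cytotoxic T cells. A heavy chain, such as HLA-B or HLA-C, pairs with the light chain β2-microglobulin, encoded by B2M, and holds a peptide that the proteasome has cut and the transporter TAP1/TAP2 has carried into the endoplasmic reticulum. Epithelial cells carry the pathway at rest, and interferons induce most of its genes, including the proteasome subunits PSMB8 and PSMB9, through regulators such as IRF1 and NLRC5.

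The 5p mature strand of miR-424 is shown here as RefSeq gives it (GRCh38.p14, chrX:134546680-134546701, minus strand). Its seed (bases 2 to 8) is in capitals, since the seed sets the family a microRNA belongs to. It shares the seed with the miR-15, miR-16, miR-195 and miR-497 family. RefSeq also lists a 3p strand with another seed, and which strand the treated cells carried was not tested.
hsa-miR-424-5p: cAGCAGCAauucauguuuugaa

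The promoters of several members hold a motif of the interferon response, and these stretches are shown because the members are described below beside interferon-induced genes. RefSeq promoter windows, from 250 bases before to 50 bases after the start, were at hand for 8 of the 9 members (10 windows, GRCh38.p14). The letters GAAANNGAA, the core of the interferon-stimulated response element (read TTCNNTTTC on the other strand), were searched on both strands and found in 5 members, HLA-F, B2M, TAP1, TAP2 and PSMB8. Of all 35116 windows of this length, 8.11% hold them. This share is of windows and not of genes, and TAP1 and PSMB8 have 2 windows each. Capitals mark the match in each stretch of 30 bases, written 5′ to 3′ on the gene's strand. The B2M and TAP1 windows each hold a further match that overlaps the one shown, and the PSMB8 match, in the second of its windows, spans the start of transcription (−3 to 5, with 0 as the first transcribed base). The stretches lie at chr6:29723268-29723297 (plus strand) for HLA-F, chr15:44711368-44711397 (plus) for B2M, chr6:32853813-32853842 (minus) for TAP1, chr6:32838779-32838808 (minus) for TAP2 and chr6:32844032-32844061 (minus) for PSMB8.
HLA-F: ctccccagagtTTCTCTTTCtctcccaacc
B2M: tctaagaaaagGAAACTGAAaacgggaaag
TAP1: ccgctttcgatTTCGCTTTCccctaaatgg
TAP2: gctggggaagcGAAAGCGAAagctgcccga
PSMB8: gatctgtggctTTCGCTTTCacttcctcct

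The letters TTCNNNGAA, the core of the gamma-activated sequence of the interferon response, were found in 2 members, TAP1 and PSMB8, and in 7.66% of all windows. Neither match overlaps those shown above. CCAAT, the box bound by the NF-Y factor, was found in 6 members, HLA-B, HLA-C, HLA-F, B2M, TAP1 and PSMB9, and in 34.6% of all windows. The starts of TAP1 and PSMB9 face away from each other. The shares given here are likewise of windows and not of genes. A match is a match of letters only.

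Spot signals were bright over the local background, whose median was 28 to 29 units of intensity in Cy3 and 69 to 70 in Cy5, with median spot signals of 165 to 189 and 290 to 314. No probe spot was saturated on either array. All 6 prostate basal epithelial markers passed the filter for measured probes, which asks for signal well above background in both channels of each array. So did 4 of 6 leukocyte (5 of the 6 are on the array), 2 of 5 fibroblast (COL1A1 and DCN) and 1 of 4 endothelial markers (CDH5). The fibroblast markers COL1A2, LUM and PDGFRB and the endothelial marker KDR did not meet it at any spot of the probe listed for each, and CD3E, VWF and PECAM1 met it at some spots only. The general leukocyte marker PTPRC was measured at a dim probe (brightness percentile 3.04). The other measured leukocyte markers, CD14, CD68 and CD79A, lay at the 56.1, 66.7 and 73.3 percentiles. The median log2 ratio of the measured leukocyte markers was −0.08. The brightness percentile of a probe is its place among the 25664 measured probes, and it ranks probes and not the genes' levels. Precision is limited throughout by there being only 2 arrays.

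Each value below is a log2 ratio of pre-miR-424 over control, positive where the treated cells gave more signal. Its dye component is the part that follows the dye and not the RNA, the mean of the Cy5 over Cy3 ratios of both arrays. In RNA of whole cultures, a change in the number of cells that carry a transcript and a change in RNA per cell cannot be told apart.

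The classical heavy chains HLA-B and HLA-C present peptides on nearly all nucleated cells, and neither was clearly higher or lower with pre-miR-424. On the array with normal labelling the brighter HLA-B probe (NM_005514) gave 43340 units in treated and 26505 in control RNA, and on the dye swap it gave 27731 in treated and 43575 in control RNA. Cy5 was thus the brighter dye both times, and after normalization the log2 ratio was −0.16 with normal labelling and 0.58 on the swap. The mean was 0.21 (SD between arrays 0.52), a 1.15-fold difference smaller than the spread. A further probe of the same HLA-B transcript had 0.03 and 0.59, with a mean of 0.31 (SD 0.40). Both HLA-B probes thus had the high value on the dye swap, with dye components of −0.37 and −0.28.

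HLA-C went the other way, with the high value on the array with normal labelling. Its probe (NM_001243042, 1 spot) read 117536 treated and 45335 control with normal labelling, and 45617 treated and 125625 control on the swap. The log2 ratios were 0.37 and −0.11, with a mean of 0.13 (SD 0.34) and a dye component of 0.24. The sign of the ratio changed with the labelling, so these arrays give no direction for HLA-C.

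The non-classical heavy chains HLA-E, which presents signal peptides of other class I chains to natural killer cells, and HLA-F, which is found largely inside the cell, were measured at 3 probes. HLA-E (NM_005516) read 36771 treated and 18002 control with normal labelling, and 15301 treated and 36411 control on the swap. Its log2 ratios of 0.20 and −0.08 gave a mean of 0.06 (SD 0.20), the smallest mean among the 9 genes.

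The 2 probes of HLA-F, for different transcripts, differed. The brighter one (NM_018950, 1 spot) read 86545 treated and 34501 control with normal labelling, and 34185 treated and 91965 control on the swap, and had log2 ratios of 0.37 and −0.12. Its mean was 0.12 (SD 0.35), and its sign changed with the labelling as for HLA-C. The dimmer one (NM_001098478, brightness percentile 79.6) read 6364 treated and 2589 control with normal labelling, and 3548 treated and 5216 control on the swap. It was higher in treated RNA on both arrays, by 1.60-fold and 1.36-fold, with log2 ratios of 0.68 and 0.45. Its mean of 0.56 (SD 0.16, dye component 0.11) was larger than its spread and lay at the 99.2 percentile of all measured probes. It was the member probe with the largest mean, and its spots ranged from 0.63 to 0.72 on the one array and from 0.41 to 0.48 on the other.

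Class I heavy chain genes are alike over long stretches. Whether a probe also takes up RNA of another heavy chain was not tested, and the values of HLA-B, HLA-C, HLA-E and HLA-F are uncertain in that respect.

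The light chain B2M was the member whose arrays differed most. Its probe (NM_004048), at the 99.6 percentile of brightness, read 231848 treated and 61458 control with normal labelling, and 61599 treated and 223334 control on the swap. The log2 ratio was 0.82 with normal labelling and −0.43 on the swap. The probe is printed as 10 spots, which ranged from 0.62 to 0.96 (median 0.83) on the one array and from −0.56 to −0.28 (median −0.45) on the other. All 10 spots were thus above 0 with normal labelling and 0 of 10 were above 0 on the swap, and the groups of spots did not overlap. The spots of an array had an SD of 0.12 with normal labelling and 0.10 on the swap, against an SD between arrays of 0.88. The mean of 0.20 (1.14-fold) was smaller than the dye component of 0.63.

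TAP1 and TAP2, which form the transporter that carries peptides into the endoplasmic reticulum, were higher on both arrays by small amounts. TAP1 (NM_000593) read 15926 treated and 7927 control with normal labelling, and 8051 treated and 16455 control on the swap, and its log2 ratios were 0.30 and 0.04. The mean of 0.17 (SD 0.19, 1.13-fold) was within its spread, and nearly all of it came from the array with normal labelling. TAP2 (NM_000544) read 9293 treated and 5327 control with normal labelling, and 5172 treated and 9648 control on the swap, and its log2 ratios of 0.16 and 0.13 were close. Its mean of 0.14 (1.10-fold) exceeded the SD between arrays of 0.02, and its dye component was 0.02. That SD was below the SD of the TAP2 spots within an array, 0.04 with normal labelling and 0.05 on the swap. It therefore understates the spread. A further TAP2 probe (NM_018833) was not well above background, with signals between 52.5 and 89.5, and counted as not measured.

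PSMB8 and PSMB9 are the immunoproteasome subunits that take the places of PSMB5 and PSMB6 in the standard proteasome and alter which peptides it cuts. PSMB8 (NM_004159) read 14439 treated and 7104 control with normal labelling, and 7652 treated and 13460 control on the swap. It was higher on both arrays, with log2 ratios of 0.34 and 0.24, and its mean of 0.29 (SD 0.08, 1.22-fold) was larger than the spread. PSMB9 (NM_002800) read 10671 treated and 5104 control with normal labelling, and 4941 treated and 10395 control on the swap. Its log2 ratios of 0.41 and −0.05 gave a mean of 0.18 (SD 0.33), and its sign changed with the labelling.

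**Figure D1:**
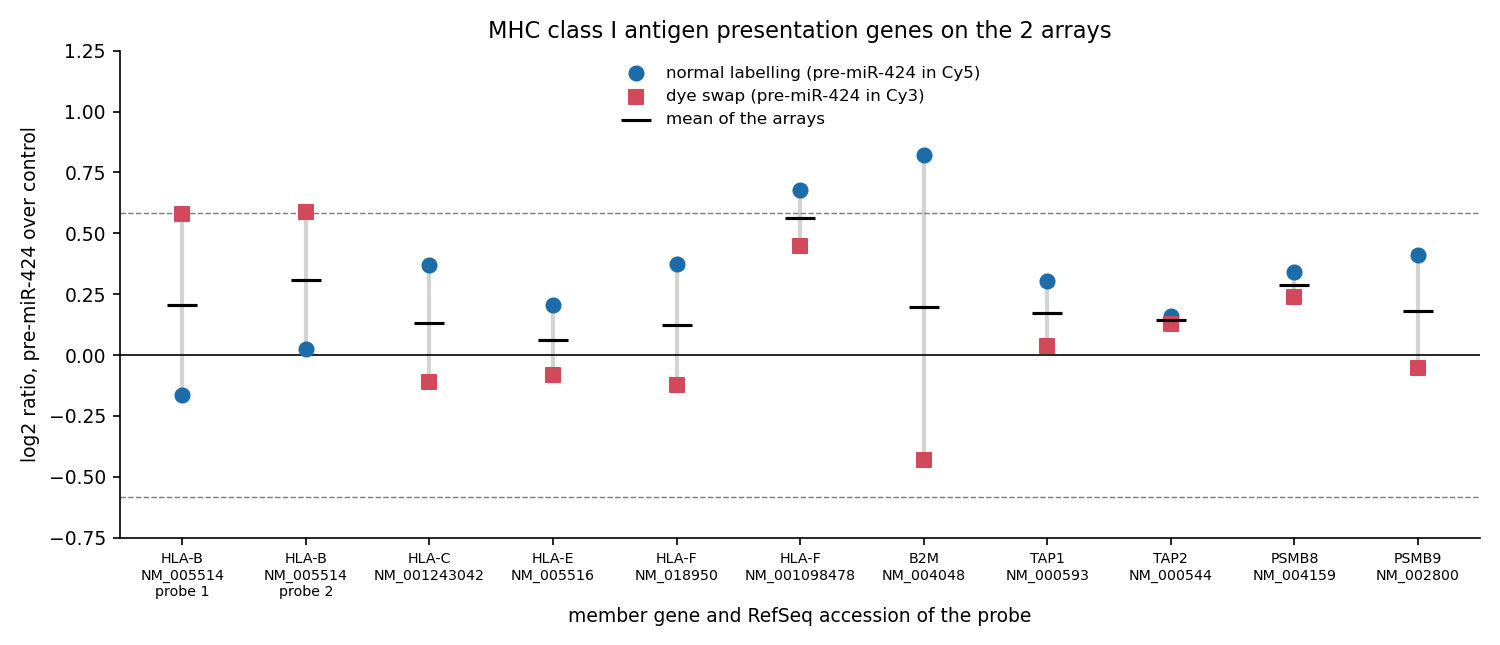
Log2 ratio of pre-miR-424 over control (vertical axis) at the 11 measured member probes (horizontal axis). Circles are the array with normal labelling, squares the dye swap, black bars their mean, grey lines the span between arrays, and dashed lines 1.5-fold. B2M spans from 0.82 to −0.43, HLA-B has its high value on the swap, and TAP2, PSMB8 and the NM_001098478 probe of HLA-F lie above 0 on both arrays with a mean larger than the SD between arrays.

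Counted by gene, with each gene represented by its brightest measured probe, 3 of 9 members (TAP1, TAP2 and PSMB8) were higher on both arrays, beside 26.8% of the 13812 measured genes. Lower on both arrays were 0 of 9 members, beside 26.7% of genes. At 1.5-fold on both arrays 0 of 9 members were higher, beside 0.623% of genes. Counted by probe, 5 of 11 member probes were higher on both arrays, beside 25% of measured probes, with the second probes of HLA-B and HLA-F added to the 3 genes above. The share of members that were higher on both arrays by gene was thus near that of all genes.

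The means stood apart from the counts in that every member had a mean above 0. The mean was above 0 for 9 of 9 members, beside 48.6% of measured genes. It ranged from 0.06 for HLA-E to 0.29 for PSMB8, with a median of 0.17 (1.13-fold). The members were chosen with earlier results of these data known, so their shared direction is no independent evidence. Over all measured genes the median was −0.0041, with the middle 50% of genes between −0.10 and 0.10. The means of PSMB8, HLA-B and B2M lay at the 94.5, 89.2 and 88.0 percentiles of genes, and that of HLA-E at 66.6. The mean was larger than the SD between arrays in 2 of 9 genes, TAP2 and PSMB8. For TAP2 this rests on an unusually small SD of 0.02, and its mean of 0.14 was close to the median SD over all measured genes, 0.13.

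In most members the dye component was larger in size than the mean. On the array with normal labelling 8 of 9 members were above 0 and their median log2 ratio was 0.34, while on the dye swap 4 of 9 were above 0 and the median was −0.05. The dye component was positive, towards Cy5, in all but HLA-B, and larger than the mean in size in 6 of 9 genes (HLA-B, HLA-C, HLA-E, HLA-F, B2M and PSMB9). The median SD between arrays was 0.33 over the members and 0.13 over all measured genes.

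The members are bright, and the brightest probes followed the dye. Of the 11 member probes, 6 lay in the brightest 5%, namely the heavy chain probes other than that of NM_001098478, and B2M. Among the 257 probes of the brightest 1%, which hold B2M, the median log2 ratio was 0.58 with normal labelling and −0.72 on the swap, and the median dye component was 0.65. The dye component of B2M, 0.63, was close to that median. Its mean of 0.20 lay above the median of these probes, −0.05, and above the value of 0.10 that 97.5% of them did not exceed. Of these probes 0.778% were higher on both arrays, so a count that asks for both arrays could seldom include B2M.

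Between the 95 and 99 percentiles of brightness, where the 5 bright heavy chain probes lay, the dye had no direction common to all probes. The median dye component of these 1027 probes was −0.00083, with 95% of them between −0.33 and 0.35, so the dye component of the brighter HLA-B probe (−0.37) lay outside that range and those of HLA-C (0.24), HLA-E (0.14) and the brighter HLA-F probe (0.25) inside it. These probes' means reached 0.28 at their 97.5 percentile. The means of HLA-C, HLA-E, the brighter HLA-F probe and the brighter HLA-B probe (0.21) lay below that value, and the mean of the second HLA-B probe (0.31) lay above it. Within these percentiles the dye varied with brightness. The 200 probes nearest HLA-C in brightness had median log2 ratios of 0.13 with normal labelling and −0.20 on the swap. Those nearest the brighter HLA-B probe had −0.05 and 0.07. The range over all 1027 probes is thus not specific to the brightness of HLA-C.

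**Figure D2:**
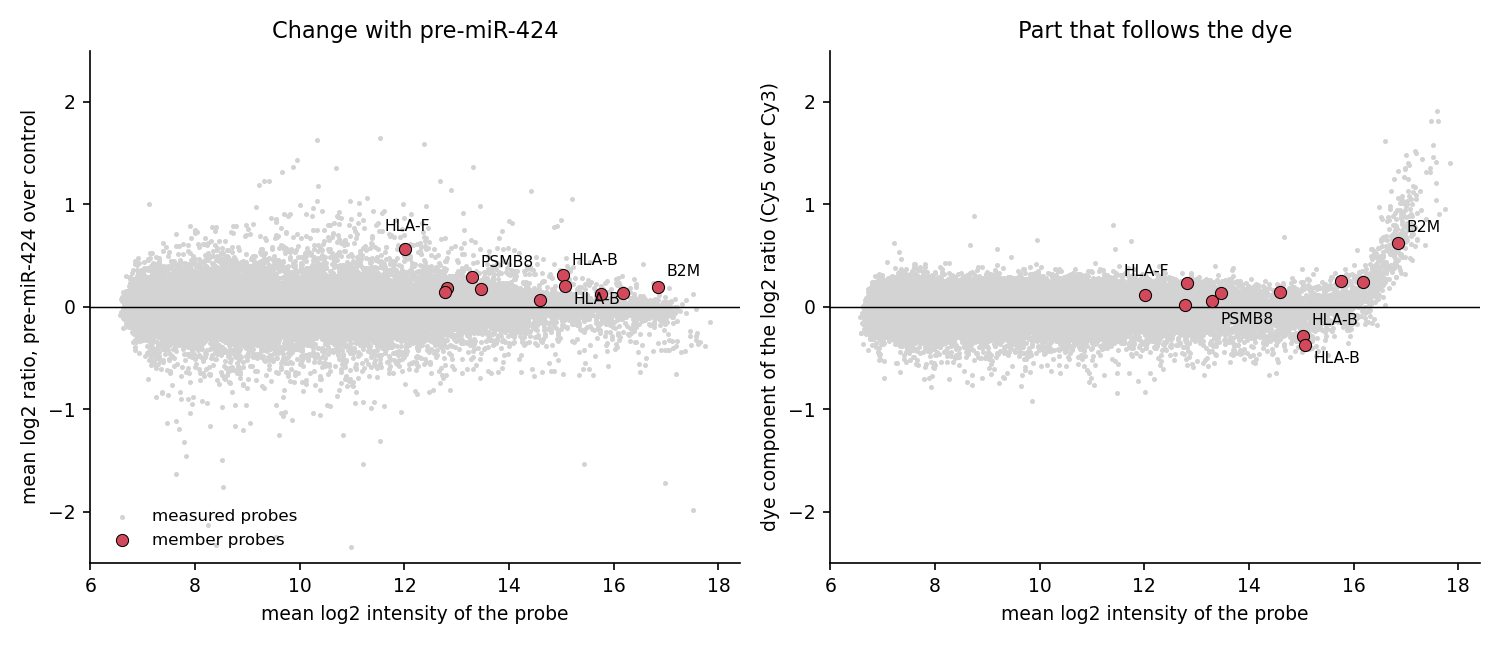
Mean log2 ratio of pre-miR-424 over control (left) and its dye component (right) against the mean log2 intensity of each of 25664 measured probes (grey) and the 11 member probes (red), the HLA-F label marking NM_001098478. The dye component bends upward at the brightest probes, where B2M lies with 0.63, and the HLA-B probes lie below 0 with −0.37 and −0.28.

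Because of this, the ratio was also taken in ways that set like with like, chosen after seeing the data. In the first, the treated and control signals of the same dye were compared across the arrays after quantile normalization within each dye. Across the measured probes, the Cy5 and Cy3 ratios correlated at a Pearson r of 0.315, against 0.157 for the ratios of the 2 arrays taken within each array. These r values are across probes that share the same 2 RNAs and are a description only.

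With each dye set against itself, 7 of 9 members were higher in both comparisons, all but HLA-C and HLA-E, beside 31.7% of measured genes. B2M had 0.08 in Cy5 and 0.44 in Cy3, a mean of 0.26, so both values were above 0. Each value here is taken across both arrays within a dye, so an effect of the dye common to both arrays drops out by construction. In exchange, the RNAs compared no longer share a spot, and differences between the arrays enter the ratio. The HLA-B probes had 0.12 and 0.29 for the first and 0.32 and 0.29 for the second. PSMB8 had 0.25 and 0.31, TAP1 0.10 and 0.22, TAP2 0.11 and 0.17, and PSMB9 0.20 and 0.16. For PSMB9 the comparisons were closer together than the arrays had been. HLA-C had −0.02 and 0.33, and HLA-E 0.15 and −0.03, so the sign of these heavy chains still depended on the dye. The NM_001098478 probe of HLA-F had 0.47 and 0.65, and its other probe 0.04 and 0.25.

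In the second, the median of the 200 probes nearest in brightness was subtracted from each array's ratio. B2M then had 0.20 with normal labelling and 0.30 on the swap, since the probes of like brightness had medians of 0.62 and −0.73. HLA-C had 0.24 and 0.09. Here 5 of 9 members were higher on both arrays (HLA-C, B2M, TAP1, TAP2 and PSMB8), beside 27.7% of genes. Counted at the brightest probe of each gene, TAP1, TAP2 and PSMB8 were thus above 0 in both values under each of the 3 ways, and HLA-E under none. For HLA-B, HLA-C, HLA-F, B2M and PSMB9 it depended on the choice. HLA-B, HLA-F and PSMB9 were above 0 in both values only with each dye against itself.

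**Figure D3:**
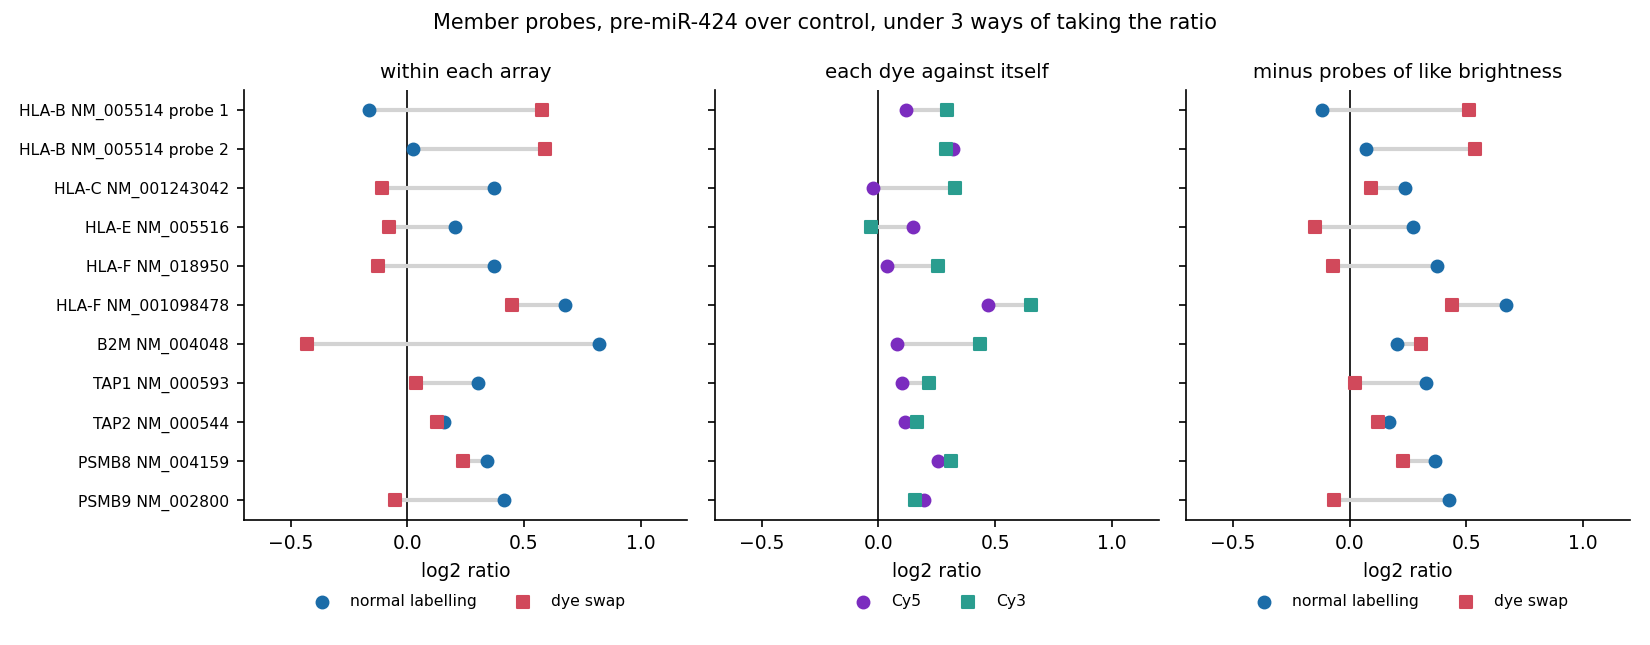
Log2 ratio of pre-miR-424 over control (horizontal axis) at the 11 measured member probes (rows), taken within each array (left), for each dye against itself across the arrays (middle), and within each array minus the median of the 200 probes nearest in brightness (right). Each row joins its 2 values. B2M lies on both sides of 0 on the left and above 0 in the middle and on the right.

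The other genes of the pathway showed no common direction. Of 17 genes of peptide supply and loading, all measured, 5 were higher and 5 lower on both arrays, with a median log2 ratio of 0.00053. PSMB10, the immunoproteasome subunit beside PSMB8 and PSMB9, had 0.12 and 0.32 (mean 0.22, SD 0.14). TAPBP, tapasin, which holds the heavy chain to the TAP transporter, had 0.26 and −0.25. PDIA3, a chaperone of the loading complex, was the list's only gene at 1.5-fold on both arrays, with 0.62 and 0.96, but its other probe had −0.28 and 0.11.

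Of the 14 standard 20S proteasome subunits, 1 was higher and 3 were lower on both arrays, with a median of −0.04. PSMB5, PSMB6 and PSMB7, the subunits replaced by PSMB8, PSMB9 and PSMB10, had means of −0.18 (SD 0.12), −0.08 (SD 0.11) and −0.03 (SD 0.16), while each of the immunoproteasome subunits had a mean above 0. Whether these subunits differ in response was not tested.

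Of 10 other class I chains and relatives, 9 were on the array and 6 measured, of which 2 were higher and 2 lower on both arrays. HFE, a class I relative that regulates iron uptake, was lower on both arrays, with −0.71 and −0.63. Of 13 class II genes, which present peptides from outside the cell, 6 were measured, 3 higher and 1 lower on both arrays, with a median of 0.02.

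Regulators of class I transcription were measured for all 14 genes listed, with 7 higher and 4 lower on both arrays and a median of 0.02. IRF9, the DNA-binding part of the factor that recognises the interferon-stimulated response element, had 0.70 and 0.64 (1.59-fold). STAT2, which binds IRF9 in that factor, was named after its values were seen and had 0.62 and 0.54. NLRC5, the transactivator of class I genes, had 0.22 and 0.08 at a dim probe (brightness percentile 30.4) and 0.03 and 0.70 at a dimmer one. IRF1 had 0.48 and 0.02.

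Genes of the antiviral interferon response differed far more than the members did. Of 14 listed genes, chosen with earlier results of these data known, 13 were measured and 13 were higher on both arrays, 12 of them at 1.5-fold, with a median log2 ratio of 1.06 against 0.17 for the members. IFI44L had 1.69 and 1.62, MX2 1.65 and 1.62, CMPK2 1.37 and 1.37, and MX1, a GTPase that blocks viruses, 1.45 and 1.28. Even IFIT2, with the smallest mean of that list (0.51), lay above the means of all 9 members at their brightest probes. Because of how the list was chosen, its direction is no independent evidence, and its part in the members' values was not tested. At their brightest probes the 5 members with the GAAANNGAA letters shown above had means of 0.12 (HLA-F), 0.20 (B2M), 0.17 (TAP1), 0.14 (TAP2) and 0.29 (PSMB8). The other HLA-F probe had 0.56. HLA-B, HLA-C and PSMB9, whose windows do not hold these letters, had 0.21, 0.13 and 0.18, so the ranges overlap. This grouping depends on the letters searched and on the windows. The TAP1 match lies between the starts of TAP1 and PSMB9 but outside the PSMB9 window. Whether the motif bears on these values was not tested.

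**Figure D4:**
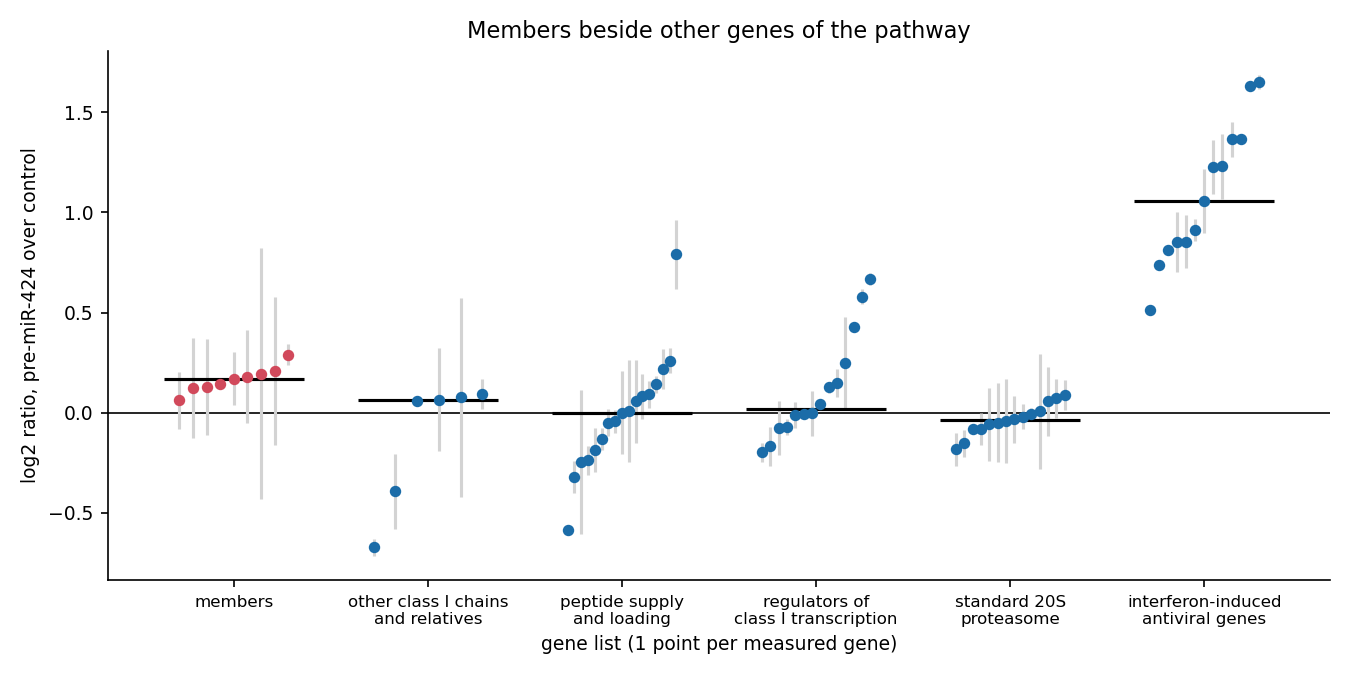
Mean log2 ratio of pre-miR-424 over control of each measured gene (points, vertical axis) in the 9 members (red) and 5 other lists (blue), sorted within a list. Grey lines span the arrays and black lines are the list medians, which are 0.17 for the members, between −0.04 and 0.06 for the pathway lists, and 1.06 for the interferon-induced antiviral genes.

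All members but B2M lie in the MHC region of chromosome 6, where TAP2, PSMB8, TAP1 and PSMB9 follow each other, and B2M lies on chromosome 15. The nearest measured protein-coding genes that are no members each had a smaller mean than the member beside it. Next to HLA-B, MICA, a stress-induced ligand of natural killer cells, was lower on both arrays (−0.20 and −0.58). POU5F1 beside HLA-C had a mean of 0.10. TRIM39-RPP21 and GNL1 beside HLA-E had 0.05 and −0.03, against 0.06 for HLA-E, and ZFP57 and HLA-G beside HLA-F −0.01 and 0.06. At the ends of the TAP2 to PSMB9 row, HLA-DOB had −0.11 and HLA-DMB 0.07, below the 4 genes between them. PATL2 and TRIM69 beside B2M had 0.14 and 0.11, against 0.20 for B2M. The neighbours were not of like brightness. HLA-DMB, TRIM69, PATL2, HLA-DOB and POU5F1 lay between the 0.92 and 38.2 percentiles, and every member at its brightest probe at 86.2 or above. The offset used draws the ratios of dim probes towards 0. For HLA-E the difference from TRIM39-RPP21 was far within its SD between arrays of 0.20. The order of genes was taken from RefSeq.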

How the data were processed

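The authors deposited the scanner output of both arrays (Agilent Feature Extraction 10.7.3.1 per the file headers), whose median spot signals and local backgrounds are intensities on a linear scale, not normalized. The deposited files also give the scanner software's log10 ratios of Cy5 over Cy3, and the authors deposited a table of log2 ratios with steps not stated, for which the labels name limma. In that table both columns ran as Cy5 over Cy3, so the swap had kept its sign (Pearson r of 0.991 and 0.988 with the values here, column medians 0.02 and 0.04). Its centring is unknown.

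Groups and dyes came from the labels. Median signals were corrected by normexp (offset 50) and normalized by loess within each array (span 0.3), with control spots at weight 0, in limma 3.58.1 (R 4.3.3). The offset draws the ratios of dim probes towards 0. Spots of a probe were averaged, and ratios were turned to pre-miR-424 over control. Measured probes were those marked well above background in each channel on each array, without outlier spots. RefSeq accessions of 25771 among 27134 probes (95.0%) had a symbol in the RefSeq gene table (GRCh38.p14, used for names and order, since the array was designed on hg19). A gene is represented by its brightest measured probe. The text names every member, the genes of the other lists at 1.5-fold on both arrays (at most 4 a list), neighbours, and PSMB10, TAPBP, NLRC5, IRF1, PSMB5, PSMB6 and PSMB7 whatever their values. Of the genes this rule names, 2 are not reported here. The members and lists were chosen with earlier results of these data known. The steps were tested on simulated data, where the rule of 1.5-fold on both arrays recovered 92 of 92 probes changed by a log2 of 1.2. It recovered only 16 of 96 changed by 0.6, so it misses most changes near its threshold, and it called 0 unchanged probes. The simulated noise was a fixed value not taken from these arrays, and the simulated dye effect was the same at every brightness. The simulated counts therefore do not give the rule's error on these arrays. Alternatives were another offset (16), no background correction, median centring, the software's and the authors' ratios, other filters, outlier spots kept, the mean over a gene's probes, each array alone, and other thresholds. A loess span of 0.1, each dye against itself, and subtraction of the 200 probes nearest in brightness were added after seeing the data. Tables and figures were made in Python 3.11.15 (numpy 2.4.6, pandas 2.3.3, matplotlib 3.10.9).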

Additional observations from a re-analysis of the deposited data

How the results depend on the processing

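With 1 replicate of the comparison, the arrays bound labelling and hybridisation error only, and at the brightest probes the median dye component exceeded the members' means. Over 12 alternatives other than each array alone, the mean log2 ratio of each of the 9 members stayed above 0. It ran from 0.02 for HLA-E under median centring to 0.34 for HLA-F as the mean of its probes. The looser filters and keeping outlier spots left these means identical, since the brightest probe of every member had already passed. An effect of the dye common to both arrays cancels in the mean, so alternatives that treat the dye could move it little. The count of members higher on both arrays, 3 of 9 beside 26.8% of genes, was 1 under median centring (14.6% of genes), 5 with a loess span of 0.1 (27.2%), 7 with each dye against itself (31.7%) and 5 relative to the probes nearest in brightness (27.7%). On each array alone it was 4 (dye swap, 49.9% of genes) to 8 (normal labelling, 50.2%), the count at 1.5-fold in either direction was 0 (3.76% of genes) to 1 (B2M, 2.76%), and the member median was −0.05 to 0.34. Median centring moved the median of all genes to 0.13 with normal labelling and −0.23 on the swap (−0.04 for the mean), and relative to this the members stayed higher. It put the list medians at −0.060 for peptide supply and loading, −0.0076 for regulators and −0.076 for standard 20S subunits. The mean over a gene's probes gave −0.043 for peptide supply and loading and 1.22 for the interferon-induced genes. On each array alone the list medians were −0.31 to 0.10 for other class I chains, −0.029 to 0.017 for peptide supply and loading, 0.027 to 0.058 for regulators, −0.060 to −0.033 for standard 20S subunits and 1.00 to 1.09 for the interferon-induced genes. No paired analysis was possible because each ratio was already taken between RNAs on the same array. The causes were not tested.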
